A study of Mus musculus with 2 samples.

Results

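Described here are 7 genes that make, load, clear and sense the transmitter GABA (γ-aminobutyric acid) in newborn mouse cortex: Gad1, Gad2, Slc32a1, Slc6a11, Abat, Gabbr1 and Gabbr2. They were taken by symbol from the 32285 genes of the count tables, and all 7 symbols were found once. The tissue was mouse cortex of postnatal day 5, profiled with 10x single-cell RNA sequencing as 1 library of Katnal2 mutants (Mut) and 1 library of wild types (WT). The product of Katnal2 resembles the catalytic subunit of katanin, an enzyme that cuts microtubules, and the title of the series links its mutation to hydrocephalus and autism. The tissue was digested with trypsin and collagenase and sorted by flow cytometry before loading, and the labels also list frozen storage after dissection. Neither the sort gate, nor the changed part of Katnal2, nor strain and number of animals is named in the labels. The design text speaks of 3 replicates per sample, whereas the barcodes of each library carry 1 suffix, so each genotype counts as 1 sample, no test between genotypes was possible, and a difference between the libraries cannot be told apart from a difference between animals or preparations.

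GABA is the main inhibitory transmitter of the mature brain. It is made from glutamate by the decarboxylases GAD67 and GAD65, loaded into vesicles by the transporter VGAT, taken up again by plasma membrane transporters of neurons and astrocytes, and broken down by GABA transaminase in mitochondria. Besides the fast GABA-A receptor channels, cells sense it through the GABA-B receptor, a G protein-coupled heterodimer that needs both of its subunits at the cell surface. In the early postnatal cortex GABA also acts on migrating neurons and on dividing precursors.

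Barcodes counted as cells when they held 1000 or more unique molecular identifiers (UMIs, each a counted transcript molecule) from 500 or more genes with no more than 20% of them mitochondrial. After removal of likely doublets 9286 Mut and 10052 WT cells remained, with a median of 7322 UMIs per Mut cell and 6210.5 per WT cell. Both libraries mixed the sexes unequally: 65.3% of the Mut cells that could be sexed were female, against 47.1% of the WT cells. Katnal2 itself was counted in both libraries, at 4.94 counts per 1000000 UMIs (CPM; 95% Poisson interval 4.45 to 5.46) in Mut and 4.03 CPM (3.58 to 4.52) in WT, and with the changed part of the gene unknown this does not check the labels. The 2 libraries share 32 barcode sequences, 0.345% of the Mut cells and 0.318% of the WT cells. All intervals below are at 95% and cover counting error only.

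A cell was given a class when at least 3 of the class's 8 markers were detected and they led the next class by at least 2. No marker list holds any of the 7 genes. This gave 1114 Mut and 1616 WT GABAergic neuron-like cells (defined by Dlx1, Dlx2, Dlx5, Dlx6 and other interneuron genes), 4173 Mut and 4223 WT astroglia-like cells, and 1737 Mut and 1888 WT oligodendrocyte precursor-like cells. Excitatory neuron-like cells numbered 41 in Mut and 39 in WT and Cajal-Retzius cell-like cells 38 in Mut and 43 in WT, so the excitatory neurons that dominate mature cortex were few in these suspensions. All 8 markers had UMIs in each of these 5 classes in both libraries. RNA free in the suspension was measured in barcodes of 10 to 100 UMIs.

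Gad1 (GAD67, which supplies most of the GABA in neurons), Gad2 (GAD65, a membrane-bound form found at nerve endings) and Slc32a1 (VGAT, which fills vesicles with GABA and glycine) all lie on chromosome 2 but far apart. In GRCm38 coordinates Gad1 spans chr2:70553072-70602014, Gad2 chr2:22622205-22693874 and Slc32a1 chr2:158610767-158615748, all on the plus strand. The antisense gene Gad1os overlaps Gad1, and reads of the pair cannot be told apart if strand was not used in counting. Gad1os had 1 UMI in Mut and 1 in WT GABAergic neuron-like cells. The antisense gene Gm14205 lies against Slc32a1, with 0 UMIs in Mut and 4 in WT. The stretches before the RefSeq starts of these 3 genes are shown because the 3 share 1 cell class, and that of Slc6a11, the astroglial uptake transporter, for contrast. They come from RefSeq, build GRCm38.p6, begin 250 bases before the start and stop at the first base that GENCODE annotates as exon of the gene. Capitals mark matches on either strand to TATAAA (bound by the TATA-binding protein), to GGGCGG (bound by Sp factors) or to TTGGCA (bound by NFI factors).
Gad1, chr2:70561879-70562041, plus strand: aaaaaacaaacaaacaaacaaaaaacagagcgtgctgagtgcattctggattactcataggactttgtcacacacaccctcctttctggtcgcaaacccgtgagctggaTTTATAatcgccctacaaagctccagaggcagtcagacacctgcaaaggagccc
Gad2, chr2:22622077-22622204, plus strand: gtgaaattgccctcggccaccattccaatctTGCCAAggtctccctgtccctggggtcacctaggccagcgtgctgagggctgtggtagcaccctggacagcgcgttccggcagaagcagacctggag
Slc32a1, chr2:158610508-158610757, plus strand: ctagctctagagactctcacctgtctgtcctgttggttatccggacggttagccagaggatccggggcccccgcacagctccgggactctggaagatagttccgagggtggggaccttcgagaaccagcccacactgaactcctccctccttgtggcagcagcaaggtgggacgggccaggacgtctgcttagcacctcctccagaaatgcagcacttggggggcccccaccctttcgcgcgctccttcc
Slc6a11, chr6:114130991-114131240, plus strand: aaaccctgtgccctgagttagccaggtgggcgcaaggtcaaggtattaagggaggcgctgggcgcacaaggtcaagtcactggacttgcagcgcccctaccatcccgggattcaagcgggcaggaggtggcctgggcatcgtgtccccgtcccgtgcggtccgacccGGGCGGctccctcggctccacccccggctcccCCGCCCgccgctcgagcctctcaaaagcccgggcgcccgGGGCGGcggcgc

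Of the 7 genes, 6 had a promoter entry, all but Abat. Over the full 250 bases, TATAAA was found in Gad1 alone of the 6, against 12.4% of 32851 promoters, and TTGGCA in Gad2 alone, against 12.3%. GGGCGG matched once in Gad1, 3 times in Slc6a11 and 2 times each in Gabbr1 and Gabbr2, and 32.7% of all promoters hold it. TAATTA, the core bound by homeodomain factors such as those of the Dlx family, was in none of the 6 windows and in 4.84% of all promoters. No match overlapped another. Gabbr2 had 37 CpG sites in its window, a number reached by 2.20% of promoters, and Slc6a11 had 25, reached by 10.7%. Such matches describe letters in 1 window and not binding.

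The 3 genes of GABA synthesis and vesicle loading were counted almost wholly in GABAergic neuron-like cells. Gad1 reached 202 CPM in Mut (191 to 214) and 184 CPM in WT (174 to 194) there. Gad2 stood at 397 CPM in Mut (381 to 413) and 397 CPM in WT (383 to 411). Slc32a1 stood at 62.2 CPM in Mut (56.1 to 68.7) and 55.3 CPM in WT (50.2 to 60.7). This class held 85.1% of all Gad1 UMIs of kept cells in Mut and 87.0% in WT, 86.1% of Gad2 UMIs in Mut and 90.3% in WT, and 95.5% of Slc32a1 UMIs in Mut and 90.7% in WT. The levels of each gene overlapped or lay close between the libraries, while the distance to the next class was many times larger.

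Outside this class the 3 genes differed in where their few UMIs lay. Gad1 came next in oligodendrocyte precursor-like cells, at 13.7 CPM in Mut (11.6 to 16.1) and 12.4 CPM in WT (10.4 to 14.6). Gad2 came next in the few excitatory neuron-like cells of Mut, at 57.8 CPM from 14 UMIs, against 8.08 CPM from 2 UMIs in WT. The GABAergic markers summed to 45.4 CPM in these Mut cells and 4.04 CPM in the WT cells, and their part in the Gad2 value was not tested. Gad1 had no UMI in excitatory neuron-like cells, which allows up to 12.4 CPM in Mut and 12.1 CPM in WT (3 UMIs). Slc32a1 was likewise at 0 there, and had 2 UMIs in Mut and 7 in WT astroglia-like cells. In microglia-like cells, which should lack the 3 genes, Gad1 had 2 UMIs in Mut and 1 in WT, Gad2 had 1 in Mut and 5 in WT, and Slc32a1 had 0 in Mut and 1 in WT. Below the precursors the intervals of Gad1 overlap from class to class, and in WT the precursor interval itself overlaps that of the 48 fibroblast-like cells, which had 1 UMI, so no order is read there.

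**Figure D1:**
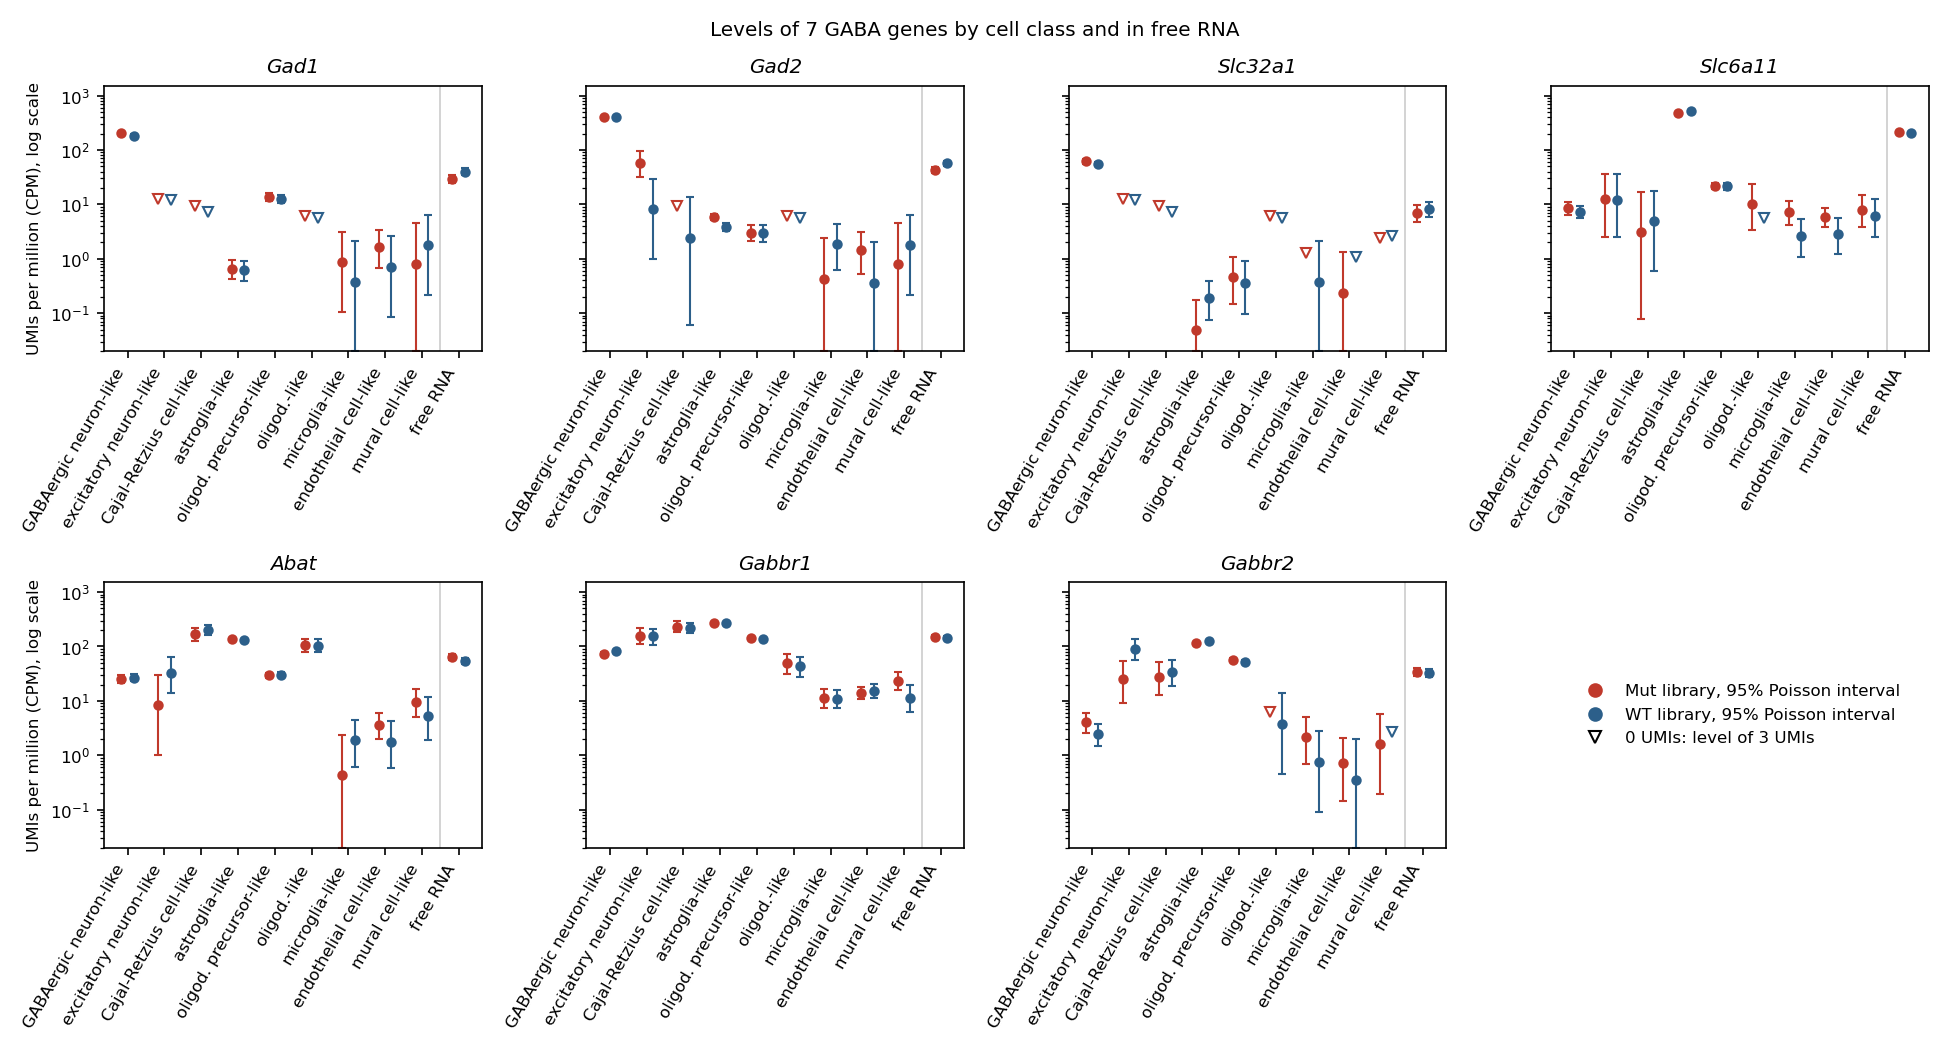
Levels of the 7 genes by cell class and in free RNA, in CPM on a log axis, with the Mut library left of the WT library; points are sums over cells, bars exact 95% Poisson intervals cut off at the bottom of the axis, and open triangles the level of 3 UMIs where none was counted. Gad1, Gad2 and Slc32a1 peak in GABAergic neuron-like cells, Slc6a11 in astroglia-like cells, and Abat and Gabbr1 are spread over several classes.

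Within single GABAergic neuron-like cells the 3 transcripts were seen in combination. At least 1 Gad1 UMI was found in 57.2% of Mut cells and 50.2% of WT cells, a Gad2 UMI in 78.0% of Mut and 71.5% of WT cells, and an Slc32a1 UMI in 27.5% of Mut and 21.8% of WT cells. The median depth in this class was 4503 UMIs in Mut and 3923 in WT. After each cell was thinned to 1000 UMIs, the shares were 20.7% in Mut and 20.1% in WT for Gad1, 34.7% in Mut and 35.5% in WT for Gad2, and 7.54% in Mut and 7.12% in WT for Slc32a1, with overlapping intervals for each gene. In microglia-like cells the unthinned shares were 0.592% in Mut and 0.228% in WT for Gad1, and 0.296% in Mut and 1.14% in WT for Gad2, at a median of 6575 UMIs in Mut and 5680 in WT. Of cells with a Gad1 UMI, 84.6% in Mut (81.6 to 87.3) and 81.5% in WT (78.7 to 84.1) also had a Gad2 UMI. Without thinning, cells with none of the 3 made up 11.5% of the class in Mut and 16.8% in WT. Cells with all 3 made up 15.9% in Mut and 10.9% in WT. Thinned to 1000 UMIs, cells with none made up 50% in Mut and 50% in WT. Thinned cells with all 3 made up 1.08% in Mut (0.558 to 1.87) and 0.433% in WT (0.174 to 0.890), with overlapping intervals.

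Dividing GABAergic neuron-like cells, those with at least 3 of 8 cell-cycle markers, held less of all 3 transcripts as a share of their UMIs. They made up 30.2% of the class in Mut and 29.5% in WT, at a median of 8438 UMIs in dividing against 3889.5 in non-dividing Mut cells and 7196 in dividing against 3410.5 in non-dividing WT cells. Gad1 was at 97.4 CPM in dividing and 296 CPM in non-dividing Mut cells, a ratio of 0.329 (0.287 to 0.376). In WT it was at 80.6 CPM in dividing and 274 CPM in non-dividing cells, a ratio of 0.294 (0.258 to 0.334). The ratio of dividing to non-dividing cells was 0.465 in Mut and 0.375 in WT for Gad2, and 0.358 in Mut and 0.281 in WT for Slc32a1. All 6 ratios lie below 1 with their intervals, and the libraries run in the same direction.

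Non-dividing GABAergic neuron-like cells were also grouped by UMIs of Sp8 (a marker of olfactory and caudally derived interneurons), of Six3 or Foxp2 (striatal lineage), and of Lhx6 (medially derived interneurons). The Sp8 group had 431 Mut and 624 WT cells, the Six3 or Foxp2 group 94 Mut and 149 WT cells, and the Lhx6 group 14 Mut and 13 WT cells. Gad1 stood at 226 CPM in the Six3 or Foxp2 group and 334 CPM in the Sp8 group of Mut, a ratio of 0.676 (0.531 to 0.852). In WT it stood at 226 CPM in the Six3 or Foxp2 group and 322 CPM in the Sp8 group, a ratio of 0.701 (0.566 to 0.861). For Gad2 the same ratio was 0.928 in Mut and 0.957 in WT, with intervals that hold 1. In the Lhx6 group Gad1 rested on 18 UMIs in Mut and 13 in WT, too few to rank it. Cells with no UMI of these 4 genes numbered 176 in Mut and 288 in WT. Their Gad1 level was 215 CPM in Mut (184 to 249) and 198 CPM in WT (171 to 227). These intervals overlap those of the Six3 or Foxp2 group in each library. A Gad1 level below that of the Sp8 group is thus not particular to Six3 or Foxp2 cells. Sp8 is also a marker of the whole class. These groups were set with the data seen.

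Gad1 in oligodendrocyte precursor-like cells came with few UMIs of Gad2 and Slc32a1. Of the Gad1 and Gad2 UMIs together, Gad1 made up 82.0% in Mut (150 of 183 UMIs; Clopper-Pearson interval 75.6 to 87.3) and 80.8% in WT (139 of 172; 74.1 to 86.4). In GABAergic neuron-like cells that share was 33.8% in Mut (32.2 to 35.3) and 31.7% in WT (30.3 to 33.0), and in free RNA it was 41.1% in Mut (35.8 to 46.6) and 41.4% in WT (36.8 to 46.1). The share is compared between cells here and not read as a ratio of transcripts, since capture of the 2 genes may differ. The precursor share thus lies above both others in each library. In precursors without a UMI of any GABAergic marker (1492 Mut and 1656 WT cells) it was 83.6% in Mut and 81.8% in WT, and these cells held 4 Slc32a1 UMIs in Mut and 2 in WT. A Gad1 UMI was found in 7.83% of Mut and 6.78% of WT precursors, against 0.592% of Mut and 0.228% of WT microglia-like cells, and 13 Mut and 11 WT precursors had 2 or more. The median depth of precursors was 5984 UMIs in Mut and 5584.5 in WT. Dividing precursors had 14.1 CPM of Gad1 and non-dividing ones 13.6 CPM in Mut, and in WT 9.51 CPM when dividing and 13.8 CPM when not. The interval of both ratios holds 1.

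**Figure D2:**
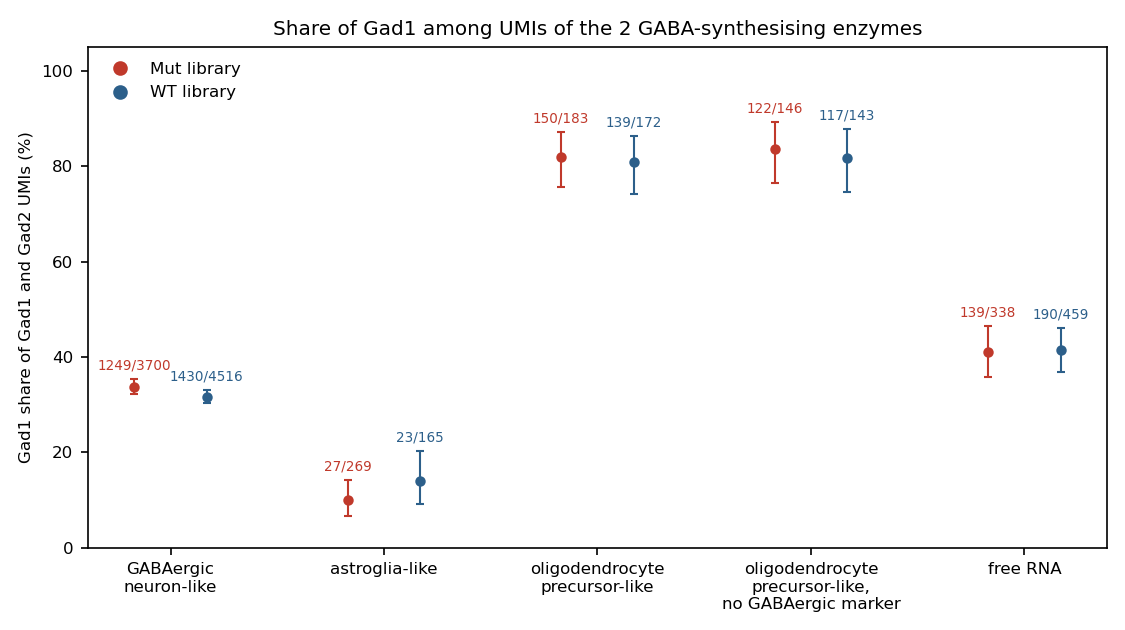
Share of Gad1 among the UMIs of Gad1 and Gad2, in percent, by class and in free RNA, with the Mut library left of the WT library; bars are exact 95% Clopper-Pearson intervals and the labels give Gad1 over summed UMIs. Precursors sit at 82.0% in Mut and 80.8% in WT, well above GABAergic neuron-like cells at 33.8% in Mut and 31.7% in WT.

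In astroglia-like cells the mix was the opposite. Gad2 was at 5.83 CPM in Mut (242 UMIs) and 3.82 CPM in WT (142 UMIs), while Gad1 was at 0.651 CPM in Mut (27 UMIs) and 0.619 CPM in WT (23 UMIs), a level that overlaps that of microglia-like cells. The antisense Gad1os had 78 UMIs in Mut and 56 in WT astroglia-like cells, more than Gad1 itself. Gad1 made up 10.0% of the Gad1 and Gad2 UMIs in Mut (6.72 to 14.3) and 13.9% in WT (9.05 to 20.2), below its share in free RNA. Free RNA was estimated to make up 2.99% of the UMIs of Mut cells and 1.57% of those of WT cells, the median over 16 markers whose single estimates ran from 0% to 57.2% in Mut and from 0% to 44.5% in WT. With these medians taken off, no Gad1 was left in either library, an outcome that depends on that estimate. A Gad2 UMI was found in 4.89% of Mut and 2.79% of WT astroglia-like cells, against 0.296% of Mut and 1.14% of WT microglia-like cells, at a median depth of 9641 UMIs in Mut and 8495 in WT astroglia. Thinned to 1000 UMIs, the share of cells was 0.503% in Mut and 0.403% in WT astroglia, against 0% in Mut (interval up to 1.09%) and 0.456% in WT microglia (2 cells). In WT the Gad2 level of astroglia (3.22 to 4.51 CPM) also overlaps that of microglia (0.617 to 4.44 CPM), so it is not read as above background there. Astroglia-like cells without any GABAergic marker UMI had 5.17 CPM of Gad2 in Mut and 3.81 CPM in WT.

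Slc6a11 encodes GAT-3, the GABA transporter typical of astrocytes (chr6:114131241-114249952, plus strand). It stood at 480 CPM in Mut (473 to 487) and 525 CPM in WT (518 to 533) in astroglia-like cells, which held 95.5% of its UMIs in Mut and 94.5% in WT. Of these cells 91.3% in Mut and 89.8% in WT had at least 1 UMI. Ependymal cell-like cells, of which there were 22 in Mut and 24 in WT, had 29.8 CPM in Mut (11.96 to 61.3) and 91.3 CPM in WT (54.1 to 144), and precursors had 21.6 CPM in Mut and 21.3 CPM in WT. In GABAergic neuron-like cells it was at 8.58 CPM in Mut (6.43 to 11.2) and 7.33 CPM in WT (5.55 to 9.49). Microglia-like cells, which should lack it, had 7.26 CPM in Mut (4.23 to 11.6) and 2.66 CPM in WT (1.07 to 5.48), and free RNA held 212 CPM in Mut and 202 CPM in WT. The neuronal value overlaps the microglial one in Mut and is read there as background. In WT the neuronal value lies just above the microglial one but overlaps that of mural cell-like cells, at 6.20 CPM (2.49 to 12.8). It is thus not read as above background in WT either.

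Abat encodes GABA transaminase, which breaks GABA down (chr16:8513429-8621568, plus strand), and it was spread more widely. It was at 139 CPM in Mut (136 to 143) and 134 CPM in WT (130 to 137) in astroglia-like cells, where 65.5% of Mut and 61.7% of WT cells had a UMI. The small Cajal-Retzius cell-like class, early-born neurons of the cortical surface, had 167 CPM in Mut (126 to 218), overlapping the astroglia, and 201 CPM in WT (159 to 249), above them. Ependymal cell-like cells had 85.0 CPM in Mut (51.9 to 131), below the astroglia, and 162 CPM in WT (111 to 229), overlapping them. Oligodendrocyte-like cells, of which there were 44 in Mut and 49 in WT, had 106 CPM in Mut and 104 CPM in WT. Their precursors had 29.8 CPM in Mut (26.6 to 33.2) and 30.4 CPM in WT (27.3 to 33.8), so that the intervals of the 2 stages do not overlap in either library. GABAergic neuron-like cells had 25.6 CPM in Mut (21.7 to 29.9) and 26.7 CPM in WT (23.2 to 30.6), which overlaps the precursors. Microglia-like cells had 0.427 CPM in Mut and 1.90 CPM in WT, and free RNA 64.7 CPM in Mut and 54.8 CPM in WT. Both Slc6a11 and Abat were detected in 61.5% of Mut and 57.6% of WT astroglia-like cells.

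The GABA-B subunits had unlike distributions. Gabbr1 encodes the subunit that binds GABA (chr17:37045966-37075067, plus strand). It reached 274 CPM in Mut (269 to 280) and 267 CPM in WT (262 to 272) in astroglia-like cells. Cajal-Retzius cell-like cells had 232 CPM in Mut (183 to 291) and 218 CPM in WT (175 to 268), which overlaps the astroglia in both libraries. Excitatory neuron-like cells had 157 CPM in Mut (111 to 215) and 154 CPM in WT (109 to 211), which overlaps both the Cajal-Retzius cell-like cells and the precursors, at 141 CPM in Mut and 138 CPM in WT. GABAergic neuron-like cells had 72.7 CPM in Mut (66.1 to 79.7) and 81.1 CPM in WT (74.9 to 87.7). Microglia-like cells had 11.11 CPM in Mut and 11.03 CPM in WT, beside 151 CPM in Mut and 145 CPM in WT free RNA.

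Gabbr2 encodes the subunit that couples to G proteins (chr4:46662305-46991873, minus strand). It was at 116 CPM in Mut (113 to 119) and 126 CPM in WT (122 to 129) in astroglia-like cells and at 56.3 CPM in Mut and 52.4 CPM in WT precursors. GABAergic neuron-like cells had 4.05 CPM in Mut (2.62 to 5.97; 25 UMIs) and 2.44 CPM in WT (1.47 to 3.81; 19 UMIs), with intervals that overlap those of microglia-like cells, at 2.14 CPM in Mut and 0.760 CPM in WT. Few cells carried much of it: the 14 non-dividing Lhx6 cells of Mut held 6 of the 25 UMIs, at 76.8 CPM (28.2 to 167), and the 149 non-dividing Six3 or Foxp2 cells of WT held 7 of the 19, at 15.0 CPM (6.05 to 31.0). The Lhx6 cells of WT held 1 UMI and the Six3 or Foxp2 cells of Mut held 3. Excitatory neuron-like cells had 24.8 CPM in Mut from 6 UMIs and 88.9 CPM in WT from 22 UMIs. A UMI of both subunits was seen in 40.5% of Mut and 37.9% of WT astroglia-like cells, in 17.0% of Mut and 14.6% of WT precursors, and in 0.808% of Mut and 0.495% of WT GABAergic neuron-like cells. Gabbr1 without Gabbr2 was seen in 30.3% of Mut and 29.1% of WT GABAergic neuron-like cells. These shares depend on depth, and Gabbr2 may be present below detection.

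Astroglia-like cells were then grouped by the 1 regional marker set they held: Gfap and Serpinf1 (fibrous astrocytes; 249 Mut and 172 WT cells), Zic1 or Zic4 (357 Mut and 384 WT), Six3 (ventral forebrain; 90 Mut and 163 WT) and Emx2 (cortex; 1217 Mut and 1125 WT). The remaining 2260 Mut and 2379 WT cells held none or several of these sets and are in no group. Slc6a11 stood at 250 CPM in the Gfap and Serpinf1 group and 504 CPM in the Emx2 group of Mut, a ratio of 0.495 (0.455 to 0.538). In WT it stood at 273 CPM in the Gfap and Serpinf1 group and 509 CPM in the Emx2 group, a ratio of 0.536 (0.485 to 0.592). The transporter was thus lower in the Gfap and Serpinf1 group in each library.

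Gabbr2 differed most between these groups among the 4 genes shown for them. It was at 19.9 CPM in the Gfap and Serpinf1 group and 131 CPM in the Emx2 group of Mut, a ratio of 0.152 (0.112 to 0.202), and at 14.2 CPM against 131 CPM in WT, a ratio of 0.109 (0.0681 to 0.166). Gabbr1 was nearly level, with a ratio of 0.904 in Mut (0.830 to 0.983) and 0.943 in WT (0.848 to 1.05). Abat had a ratio of 1.02 in Mut and 1.08 in WT, both with intervals that hold 1. Gad2, at 10.6 CPM in the Gfap and Serpinf1 group and 5.78 CPM in the Emx2 group of Mut, and at 12.9 CPM against 2.46 CPM in WT, had 26 UMIs in the Gfap and Serpinf1 group and 75 in the Emx2 group of Mut, and 20 and 28 UMIs in WT. Its ratio was 1.83 in Mut (1.12 to 2.89) and 5.27 in WT (2.81 to 9.70). The Gad2 UMIs of the Gfap and Serpinf1 group came from 18 Mut and 12 WT cells. In WT the Emx2 level (1.63 to 3.55 CPM) lies within the interval of microglia-like cells (0.617 to 4.44 CPM). The WT ratio is thus taken over a level not read as above background.

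For Slc6a11 and Gabbr2 the Six3 group lay on the other side of the Emx2 group. Slc6a11 had 795 CPM in Six3 cells of Mut, 1.58 times its Emx2 level (1.46 to 1.71), and 887 CPM in WT, 1.74 times (1.64 to 1.85). Gabbr2 had 208 CPM in Six3 cells of Mut, a ratio of 1.59 (1.35 to 1.86), and 279 CPM in WT, a ratio of 2.14 (1.91 to 2.40). Abat had a ratio of 1.27 in Mut (1.07 to 1.504) and 1.52 in WT (1.33 to 1.74). Gabbr1 had a ratio of 0.930 in Mut and 1.07 in WT, with intervals that hold 1. In the Zic1 or Zic4 group Slc6a11 had a ratio of 0.993 in Mut and 1.12 in WT, and Gabbr1 0.863 in Mut and 0.775 in WT. The way these markers were combined into groups was settled with the data seen.

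**Figure D3:**
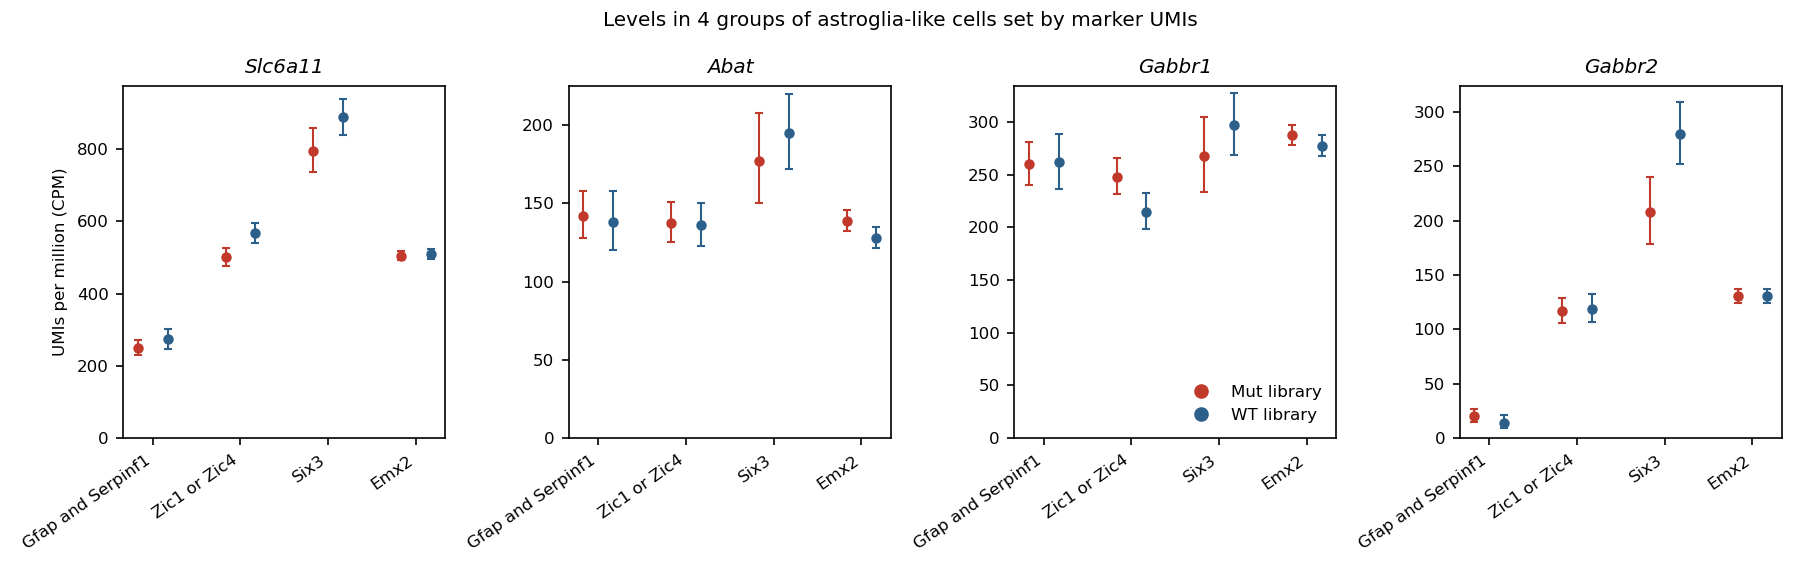
Levels of Slc6a11, Abat, Gabbr1 and Gabbr2 in CPM in 4 groups of astroglia-like cells named by their marker UMIs, with the Mut library left of the WT library and exact 95% Poisson intervals as bars. Gabbr2 sits at 19.9 CPM in Mut and 14.2 CPM in WT in Gfap and Serpinf1 cells and at 131 CPM in both libraries in Emx2 cells. Gabbr1 is nearly level between Gfap and Serpinf1 cells and Emx2 cells.

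As a share of their UMIs, dividing astroglia held less of the clearance and receptor genes. Dividing astroglia were deeper, at a median of 12763 UMIs in dividing and 9067 in non-dividing Mut cells. In WT the medians were 11728 in dividing and 7840 in non-dividing cells. A lower CPM need therefore not be a lower count per cell, and the share of cells with a UMI differed by gene. An Abat UMI was found in 67.6% of dividing and 65.0% of non-dividing Mut cells, and in 66.3% of dividing and 60.6% of non-dividing WT cells. Gabbr2 went the other way, with a UMI in 37.7% of dividing and 45.7% of non-dividing Mut cells. In WT it was found in 37.5% of dividing and 44.7% of non-dividing cells. In astroglia-like cells, of which 19.2% in Mut and 19.0% in WT were dividing, Slc6a11 was at 338 CPM in dividing and 529 CPM in non-dividing cells of Mut, a ratio of 0.638 (0.615 to 0.661), and at 368 CPM in dividing and 582 CPM in non-dividing cells of WT, a ratio of 0.633 (0.610 to 0.656). The ratio was 0.723 in Mut and 0.693 in WT for Abat, 0.721 in Mut and 0.684 in WT for Gabbr1, and 0.565 in Mut and 0.515 in WT for Gabbr2. In precursors Gabbr1 had a ratio of 0.715 in Mut (0.634 to 0.804) and 0.781 in WT (0.697 to 0.873). For Abat in precursors the libraries were less alike, with a ratio of 0.569 in Mut (0.426 to 0.749) and 0.886 in WT (0.696 to 1.12).

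**Figure D4:**
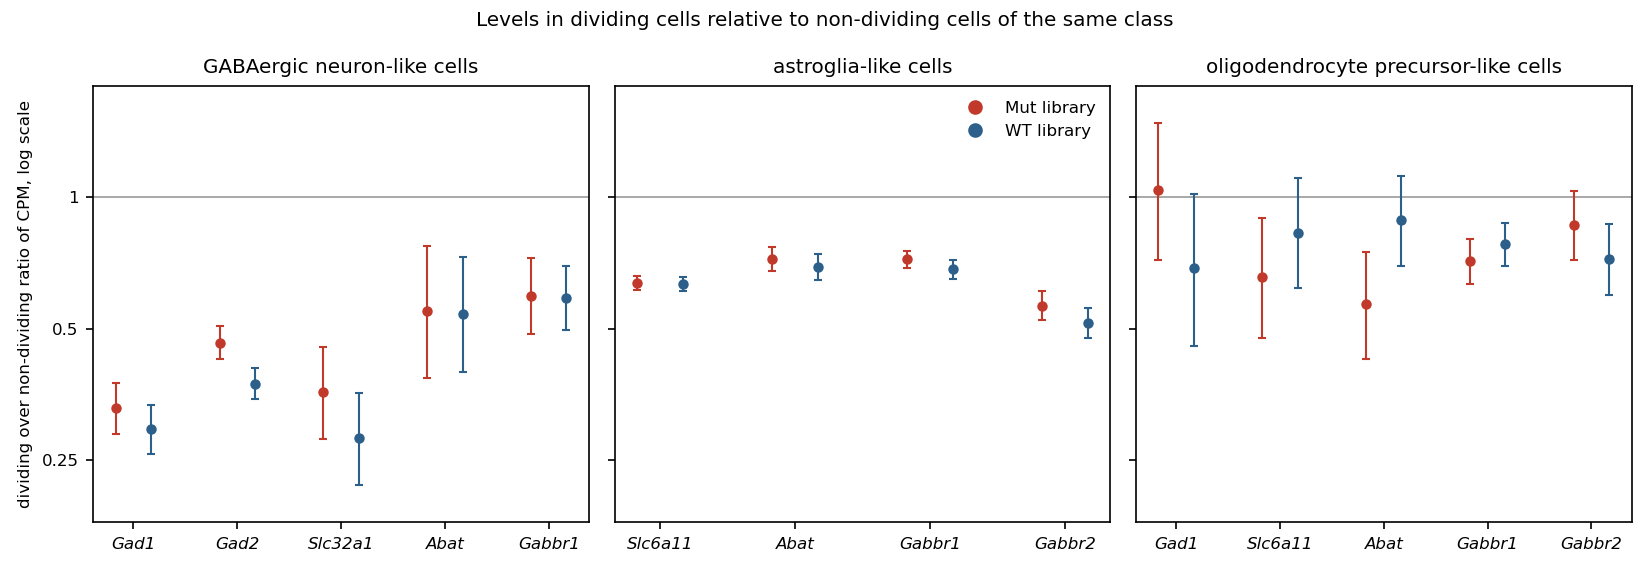
Ratio of CPM in dividing over non-dividing cells of the same class, on a log axis, for the genes with enough UMIs, with the Mut library left of the WT library and exact conditional binomial 95% intervals as bars. In GABAergic neuron-like and astroglia-like cells every ratio shown lies below 1, while in precursors some intervals cross 1.

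Mut and WT were compared gene by gene within the 3 large classes, and a gene was called when its CPM differed 1.2-fold or more in either direction with at least 100 UMIs over both libraries. In GABAergic neuron-like cells none of the 6 countable genes passed, where 21.4% of 9207 genes did, 1593 higher and 381 lower in Mut. With TMM scaling, which centres the bulk of the genes, that split became 826 higher and 830 lower. Gad1 had a Mut over WT ratio of 1.10 (1.02 to 1.19), Gad2 1.0 (0.948 to 1.06), Slc32a1 1.12 (0.977 to 1.29), Slc6a11 1.17 (0.790 to 1.73), Abat 0.957 (0.773 to 1.18) and Gabbr1 0.896 (0.792 to 1.01). Gabbr2, with 25 UMIs in Mut and 19 in WT, was not counted. The median log2 ratio of the 6 was 0.07, beside 0.08 over all counted genes. In female cells alone Gabbr1 passed the fold, at 0.797 (0.649 to 0.978), and in male cells it had a ratio of 0.967 (0.792 to 1.18).

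In astroglia-like cells 1 of 5 countable genes passed, where 13.6% of 12488 genes did, 1210 higher and 483 lower in Mut, or 887 higher and 626 lower with TMM scaling. That gene was Gad2, at 1.53 (1.24 to 1.89), on the low level given above. The GABAergic markers summed to 69.6 CPM in Mut and 72.5 CPM in WT astroglia-like cells. In female cells Gad2 was at 6.88 CPM in Mut and 4.51 CPM in WT, a ratio of 1.53 (1.14 to 2.07). In male cells it was at 3.95 CPM in Mut and 3.64 CPM in WT, a ratio of 1.08 (0.723 to 1.62), so the call is absent there. It is also lost when cells are thinned to 1000 UMIs, where too few Gad2 UMIs remain to count. In Emx2 cells it was at 5.78 CPM in Mut and 2.46 CPM in WT, and in Gfap and Serpinf1 cells at 10.6 CPM in Mut and 12.9 CPM in WT. The share of female cells differs between the libraries, and its part in the Gad2 ratio beyond these within-sex values was not tested. Slc6a11 had a ratio of 0.914 (0.896 to 0.932), Gabbr2 0.924 (0.887 to 0.962), Abat 1.04 (1.0 to 1.08) and Gabbr1 1.03 (1.0 to 1.06). The Gabbr1 values ran in opposite directions in the sexes: it was at 264 CPM in Mut and 308 CPM in WT female cells, and at 295 CPM in Mut and 239 CPM in WT male cells. The median log2 ratio of the 5 was 0.04, beside 0.05 over all counted genes.

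In oligodendrocyte precursor-like cells none of 5 countable genes passed, where 13.6% of 11087 genes did, 1090 higher and 414 lower in Mut, or 732 higher and 628 lower with TMM scaling. The ratios ran from 0.979 for Abat (0.838 to 1.14) to 1.11 for Gad1 (0.874 to 1.41), and the median log2 ratio of 0.03 stood beside 0.04 over all counted genes. Gad2 had 33 UMIs in each library and was not counted. In male precursors alone Abat was at 34.1 CPM in Mut and 26.7 CPM in WT (1.28, 0.974 to 1.67) and Gabbr2 at 58.6 CPM in Mut and 48.8 CPM in WT (1.202, 0.982 to 1.47), both past the fold with intervals that hold 1.

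**Figure D5:**
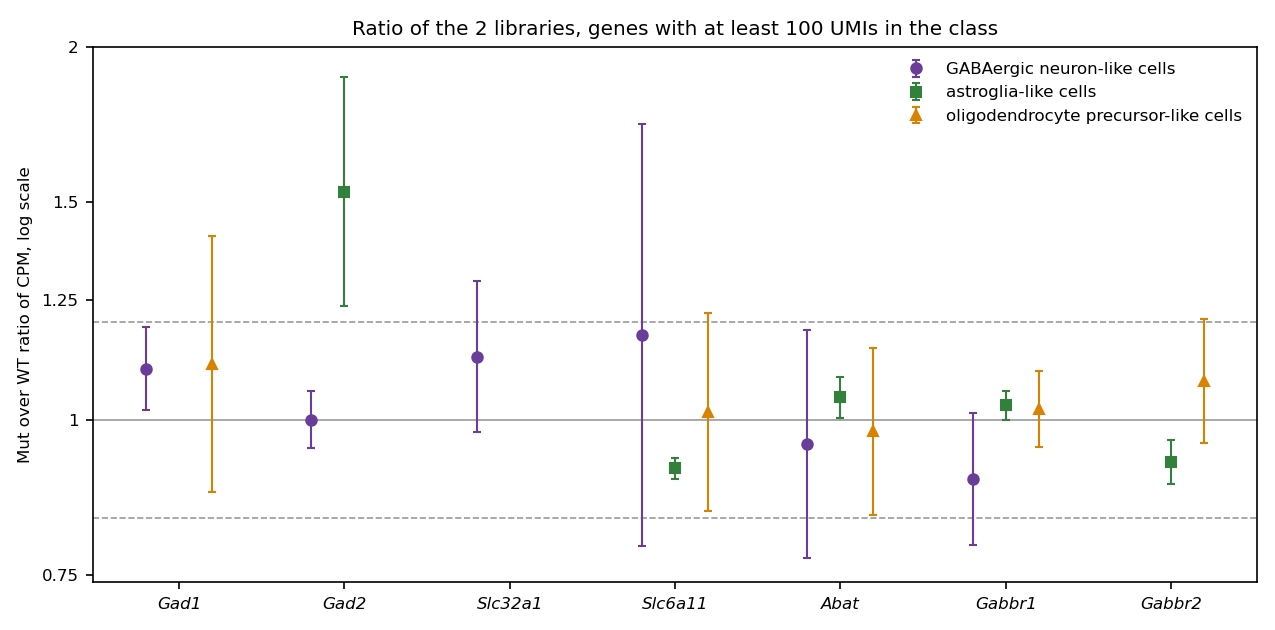
Mut over WT ratio of CPM for the genes with at least 100 UMIs over both libraries, on a log axis, in 3 classes; bars are exact conditional binomial 95% intervals that cover counting error only, and dashed lines mark 1.2-fold. Gad2 in astroglia-like cells, at 1.53, is the 1 point beyond the dashed lines.

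The related lists were counted beside the share of all counted genes past 1.2-fold, which was 21.4% in GABAergic neuron-like cells and 13.6% in each of the other classes. Of 16 listed genes of GABA transport and metabolism, 10 were countable in GABAergic neuron-like cells and 2 passed, both higher in Mut: Glud1 (glutamate dehydrogenase) at 1.21 and Glul (glutamine synthetase, which returns glutamate to glutamine) at 1.21. In astroglia-like cells 2 of 13 passed, both higher in Mut, Slc38a1 (a glutamine transporter) at 1.249 and Slc6a6 (the taurine transporter) at 1.24 with an interval that holds 1 (0.993 to 1.54). Both counts are near the share over all genes. In precursors 3 of 12 passed, Slc6a6 at 1.22 and Aldh5a1 (succinate semialdehyde dehydrogenase, the step after GABA transaminase) at 1.22, and Slc38a6 at 0.701. With TMM scaling the calls of Glud1 and Glul in GABAergic neuron-like cells and of Slc6a6 and Aldh5a1 in precursors were lost, at ratios of 1.13, 1.14, 1.19 and 1.18. The list's median log2 ratio was 0.09 in GABAergic neuron-like cells, 0.09 in astroglia-like cells and 0.04 in precursors.

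Among 19 GABA-A receptor subunits, 2 were countable in GABAergic neuron-like cells, and neither passed. In astroglia-like cells 3 of 7 passed, among them Gabra4 and Gabrb1. Gabra4 was at 32.6 CPM in Mut and 24.8 CPM in WT (ratio 1.31, 1.21 to 1.43), and Gabrb1 at 53.2 CPM in Mut and 42.7 CPM in WT (1.24, 1.17 to 1.33). In precursors 3 of 11 passed, Gabrb1 at 1.24 (1.01 to 1.53), and Gabra2 at 0.809 (0.647 to 1.01) and Gabrb2 at 0.832 (0.617 to 1.12) with intervals that hold 1, with Gabrg3 added under TMM scaling at 0.829. The median log2 ratio of the subunits was 0.05 in GABAergic neuron-like cells, 0.05 in astroglia-like cells and -0.03 in precursors. A list of 15 genes was taken as GABA-B partners and effectors (auxiliary Kctd subunits, Gi and Go proteins, potassium channels and others). It also holds Gabarap, the GABA-A receptor-associated protein, which was counted in all 3 classes and passed in none. Of the list, none of 6 passed in GABAergic neuron-like cells. In astroglia-like cells 1 of 10 passed (Rgs6, a regulator of G protein signalling, at 1.21). In precursors 1 of 9 passed (Kctd12, an auxiliary subunit of the receptor, at 1.34). With TMM scaling Rgs6 was lost, at 1.18, and Gnai1 (an inhibitory G protein subunit) in GABAergic neuron-like cells was added, at 0.816. The median log2 ratio of this list, Gabarap included, was -0.05 in GABAergic neuron-like cells, 0.11 in astroglia-like cells and 0.09 in precursors.

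Genes with the most similar distribution were sought over 12 points, 6 classes in 2 libraries, among 6647 genes, by Pearson correlation of log2(CPM + 5). With points that share library and class, these values only describe likeness. Nearest to Gad1 were Tubb3, Bcl11b and Myt1l, all known from neurons. The GABAergic neuron-like class was the only neuron class among the 6, since excitatory neuron-like and Cajal-Retzius cell-like cells were too few. In both of those classes Gad1 had no UMI, so likeness to genes of neurons in general is not shown. Nearest to Gad2 were Synpr, Dlx2 and Sp8, and nearest to Slc32a1 Dlx6, Dlx5 and St18. Dlx2, Sp8, Dlx6 and Dlx5 are class markers. Nearest to Slc6a11 were Klf15, Fgfr3 (a class marker) and Nwd1, nearest to Abat Rcn2, Igfbp2 and Phyhipl, nearest to Gabbr1 Nrcam, Dtx1 and Sox21, and nearest to Gabbr2 Ttyh1, Grm5 and Nim1k. The correlations ran from 0.979 for Phyhipl with Abat to 0.999 for Dlx6 with Slc32a1.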

How the data were processed

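The deposited counts are raw UMI counts per gene and barcode for every barcode, written by Cell Ranger 4 per the file headers. Cell Ranger, STAR and the mouse build GRCm38 are named in the submitters' processing notes. Each of annotation release, chemistry and strand use in counting is not given in the sources used here. File totals were 97891513 UMIs in Mut and 93664707 in WT.

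The rule on UMIs, genes and mitochondrial share kept 10102 Mut and 11024 WT barcodes. Doublets were ranked by Scrublet in scanpy 1.11.5, and the highest 0.8% per 1000 barcodes were removed, 816 in Mut (8.08%) and 972 in WT (8.82%); the tool's own threshold marked 383 in Mut and 375 in WT. Counts were summed per class and library and given per 1000000 UMIs (CPM). With 1 library per genotype there is no test. Levels have exact Poisson intervals, shares Clopper-Pearson intervals and ratios exact conditional binomial intervals (Python 3.11.15, scipy 1.17.1, numpy 2.4.6, pandas 2.3.3), all of them for counting error only. Thinning drew 1000 UMIs from each cell and left out none. Cells with UMIs of Xist and of no Y-linked gene were taken as female, and the reverse as male.

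Named are the 7 genes, genes of 3 fixed pathway lists past 1.2-fold with at least 100 UMIs (others for context), and for each of the 7 the 3 genes of highest correlation over classes of at least 100 cells. The members and lists were chosen with earlier results of these data known, and the groups within classes after the data were seen. The calculation was tested on simulated data. Alternatives were other barcode rules, no doublet removal, stricter markers, thinning, free RNA subtraction, single sexes, another fold or UMI minimum, and TMM scaling (edgeR 4.0.16, R 4.3.3). Values of some genes of the lists are not reported here. No column of the files was left unused.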

Additional observations from a re-analysis of the deposited data

Results flagged for a closer look

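Gabbr1 in astroglia-like cells is given a closer look because the Mut and WT libraries differed in opposite directions in the 2 sexes. In female cells its Mut over WT ratio was 0.857 (0.824 to 0.891), and in male cells it was 1.24 (1.18 to 1.30). Each side holds the cells of 1 library, so the difference between the sexes was not tested, and it cannot be told apart from a difference between animals. In oligodendrocyte precursor-like cells the ratio of the same gene was 0.924 in female and 1.15 in male cells, and in GABAergic neuron-like cells it was 0.797 in female and 0.967 in male cells.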

How the results depend on the processing

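No paired analysis was possible because each genotype has 1 library. The number of the 7 genes past 1.2-fold in GABAergic neuron-like cells, 0 in the main setting, was 1 with 500 UMIs and 250 genes per barcode (Slc6a11), 1 in female cells (Gabbr1) and 1 with 30 UMIs per gene (Gabbr2). In astroglia-like cells it was 1 and became 0 with cells thinned to 1000 UMIs, where Gad2 kept 22 UMIs in Mut and 18 in WT; in male cells the 1 gene was Gabbr1. In precursors it was 0 and became 1 when thinned (Abat, with 45 UMIs in Mut and 61 in WT) and 2 in male cells. TMM scaling moved log2 ratios of Gad2 in GABAergic neuron-like cells to -0.09 and of Gabbr1 in astroglia-like cells to 0.00. The Gad1 share of Gad1 and Gad2 UMIs moved beyond its interval in few settings, alternatives added after the data were seen. In Mut precursors it was 74.5% without doublet removal, 75.0% thinned, 88.0% with free RNA subtracted and 88.0% in male cells, and in WT precursors 73.1% in male cells. In GABAergic neuron-like cells it was 32.1% in Mut female cells. In astroglia-like cells it was 25.0% in WT when thinned, and 0% in Mut and 0% in WT with free RNA subtracted. Of the other values, 87 of the levels, 27 of the log2 ratios and 31 of the ratios between groups within a class moved beyond their interval, and 333 levels, 133 log2 ratios and 177 ratios within a class did not. The cause of these moves was not tested. Depth limits all shares of cells with a UMI and all classes of under 100 cells.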
